A study of Mus musculus with 8 samples.

Results

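The 10 genes described here build the circadian clock and its first output: Rora, Arntl, Clock, Per1, Per2, Per3, Cry2, Nr1d1, Nr1d2 and Dbp. They were chosen by symbol, and all 10 were found among the 54532 genes of each count table. RNA came from the quadriceps of chow-fed mice aged 3 months. Knockout mice (4 libraries) carried Gpcpd1 Flox/Flox and MckCre, and control mice (4 libraries) carried Gpcpd1 Flox/Flox and no Cre. Gpcpd1 encodes a phosphodiesterase that splits glycerophosphocholine, and Mck is the muscle creatine kinase promoter, which directs Cre to striated muscle. Other cells of the tissue keep the gene, and because controls lacked Cre, Cre and the loss of Gpcpd1 cannot be told apart. The labels do not say that each library is a separate mouse, so a p-value here reflects library-to-library spread, which may be technical. They also give no time of day at which the muscle was taken, nor sex, litter or batch.

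The mammalian clock is a feedback loop of transcription factors. ARNTL (also called BMAL1) and CLOCK bind E-box sequences and switch on the Per and Cry genes, whose proteins return to block them. The same pair drives Nr1d1 and Nr1d2, which encode the REV-ERB repressors, and Dbp, which encodes an activator of output genes. REV-ERB proteins and the ROR receptors, of which RORA is one, compete for the same DNA element in Arntl and other genes. In muscle the loop sets daily rhythms of fuel use, and the RNA of most of its members rises and falls over the day, so that a level from a single sampling reflects the hour as well as the genotype.

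Libraries held between 4404116 and 5405999 reads from the 3′ ends of polyadenylated RNA, so a long transcript gives no more reads than a short one by design, and levels are given as CPM, in which TMM factors bring the libraries to one scale. Gpcpd1 stood at 35.1 ± 3.45 CPM in knockout muscle and 149.7 ± 10.7 CPM in control muscle (SD, n = 4 each), although 3′ reads may lie outside the deleted exons. The 9 markers of skeletal muscle summed to between 157762 and 165981 CPM in knockout libraries and between 145576 and 166119 CPM in control libraries, with 2 of 9 higher and 1 lower. The log2 fold changes of these 3 were 0.43 for Mylpf (edgeR adjusted p = 0.00101), 0.26 for Acta1 (adjusted p = 0.0495) and -0.31 for Myh4 (adjusted p = 0.0128), each with groups that did not overlap. Myh2 had the largest change of the 9, a log2 fold change of 1.46 (adjusted p = 0.0644). Its groups did not overlap, and it was not called. The same held for Atp2a1, with a log2 fold change of -0.21 (edgeR adjusted p = 0.117). Myh1 had 0.67 (adjusted p = 0.112), with groups that overlapped. Slow fibre markers summed to 59.1 CPM in knockout 1 and to between 20.6 and 23.8 CPM in the other knockouts. Controls lay between 17.0 and 36.3 CPM in that sum. Macrophage markers summed to between 52.7 and 82.5 CPM in knockouts and between 71.1 and 117.7 CPM in controls, with 3 of 7 tested markers lower. Fibroblast markers summed to between 441.8 and 537.5 CPM against 495.2 to 609.1 CPM in controls (1 of 6 lower), and endothelial markers to between 375.1 and 436.3 CPM against 397.4 to 484.9 CPM in controls (0 of 6 called). Of the adipocyte markers 0 of 5 were called, and of the red blood cell markers 0 of 5. Among all 10691 tested genes 8.87% were called higher and 6.8% lower, and 19.2% had groups that did not overlap. No marker on these lists was at 0 in all libraries. The part these cells had in the results was not tested.

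Rora was the member that changed. Rora (ENSMUSG00000032238, GRCm38 chromosome 9, 68653786 to 69388246, plus strand) encodes the nuclear receptor that activates Arntl through the element it shares with the REV-ERB proteins. It had 243.4, 261.8, 267.5 and 242.8 CPM in knockouts 1 to 4, against 405.6, 424.0, 416.2 and 418.0 CPM in controls 1 to 4. The highest knockout library lay well below the lowest control library, and within each genotype the libraries were close together. The knockout level was 61.0% of control, a log2 fold change of -0.71 (SE 0.08, 95% interval -0.87 to -0.55, edgeR quasi-likelihood adjusted p = 5.3e-07). By p, Rora ranked 68 of 10691 tested genes. In bulk tissue, fewer cells that express a gene and less of its RNA per cell cannot be told apart. Rora rests on 1138 to 2126 reads per library. The antisense gene Gm15511, which overlaps Rora in the annotation, had 0 reads in every library. Isoforms of Rora that share a 3′ end are counted together.

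None of the other 9 members passed the threshold, and each of them had knockout libraries that overlapped the control libraries. Their log2 fold changes ran from -0.45 (Dbp) to 0.20 (Per2), and the lowest adjusted p among them, that of Clock, was 0.275. So 1 of 10 members was called, in the lower direction. Of all 10691 tested genes 15.7% were called in either direction, 8.87% higher and 6.8% lower in the knockout, and 19.2% had groups that did not overlap. With 1 call among 10 genes, nothing is read from a comparison of these shares. The median log2 fold change was 0.00 over the 10 members and 0.01 over all tested genes. A p above the threshold does not show equal levels, and the 95% intervals say what size of difference remains possible: for 8 of the 9, all but Dbp, they lie within a 2-fold change in either direction, and for 7 of the 9, all but Dbp and Per1, they lie above the value of Rora.

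**Figure D1:**
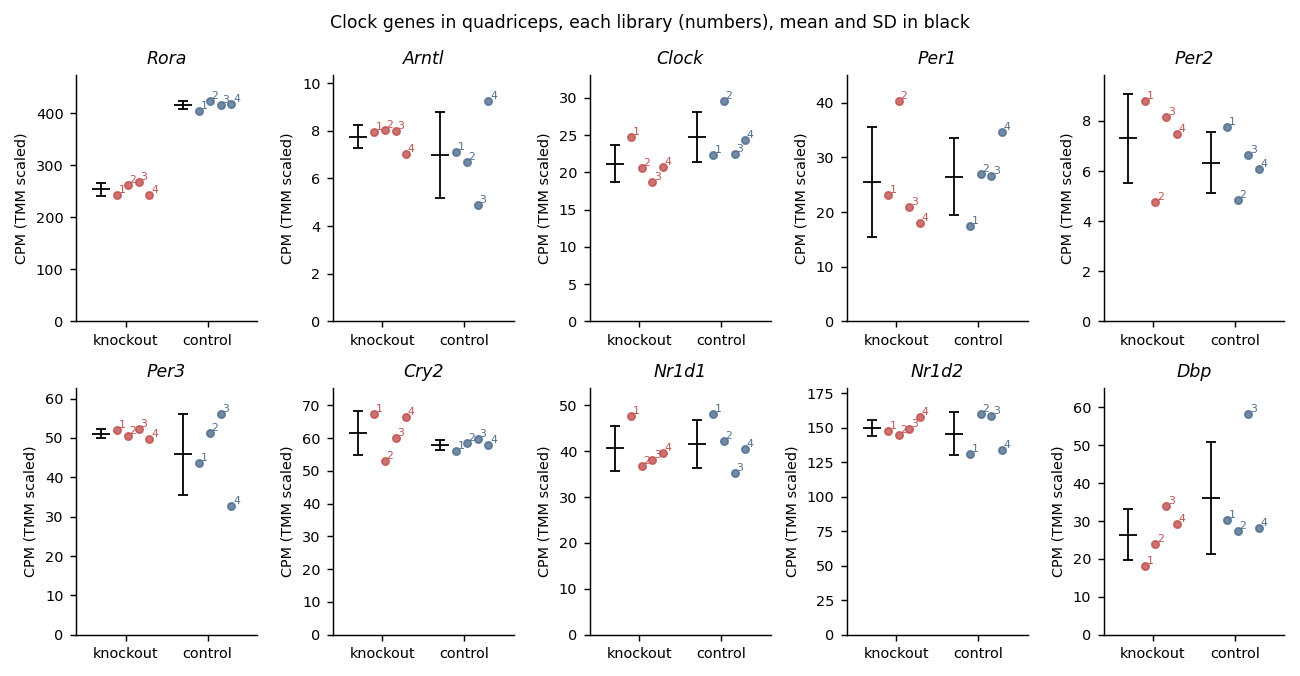
CPM of each clock gene in the 4 knockout libraries (red) and 4 control libraries (blue), numbered by replicate, with the mean and SD in black; all axes start at 0. Rora separates the genotypes, with knockouts at 242.8 to 267.5 CPM and controls at 405.6 to 424.0 CPM, while the other 9 genes overlap.

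The activators came first among these 9. Arntl, the partner of CLOCK, had 7.96, 8.02, 7.99 and 7.04 CPM in knockouts 1 to 4, against 7.11, 6.69, 4.89 and 9.25 CPM in controls 1 to 4. The knockouts lay inside the range of the controls, in which control 3 was the lowest and control 4 the highest of all 8 libraries. Between genotypes Arntl had a log2 fold change of 0.16 (95% interval -0.26 to 0.57, edgeR adjusted p = 0.658). Arntl had between 25 and 44 reads per library, and the variance of its reads within genotypes was 1.20 times that expected from counting alone, so most of its scatter is of the size of counting error. Clock had 24.7, 20.6, 18.8 and 20.7 CPM in knockouts 1 to 4, against 22.4, 29.6, 22.5 and 24.4 CPM in controls 1 to 4. Knockouts 2, 3 and 4 were below every control, and knockout 1 was above all controls but control 2. Its log2 fold change was -0.22 (95% interval -0.49 to 0.04, edgeR adjusted p = 0.275).

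The repressors of the Per and Cry families spread in different ways. Per1, which besides its E-boxes answers to glucocorticoid and to cyclic AMP signals, had 23.0, 40.3, 21.0 and 17.9 CPM in knockouts 1 to 4, against 17.4, 27.0, 26.6 and 34.7 CPM in controls 1 to 4. Knockout 2 was the highest and control 1 the lowest library, so the spread of Per1 within genotypes was wider than the gap between them. Per1 had a log2 fold change of -0.04 with a 95% interval of -0.72 to 0.63, and its reads varied 14.4 times as much as counting error would give. Per2, the family member needed most for rhythm in mice, had 8.80, 4.77, 8.18 and 7.47 CPM in knockouts 1 to 4, against 7.75, 4.86, 6.66 and 6.10 CPM in controls 1 to 4. Its lowest library was knockout 2, the one highest in Per1. The log2 fold change of Per2 was 0.20 (95% interval -0.25 to 0.65), at only 24 to 44 reads per library.

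Per3, whose loss leaves mice largely rhythmic, was almost the same in the 4 knockouts. It had 52.0, 50.4, 52.2 and 49.7 CPM in knockouts 1 to 4, against 43.5, 51.3, 56.0 and 32.6 CPM in controls 1 to 4. Controls thus spread over a range of 1.72-fold, and knockouts, which lay inside it, over 1.05-fold. The log2 fold change of Per3 was 0.15 (95% interval -0.10 to 0.41, edgeR adjusted p = 0.455). With the level of Arntl as a covariate it became 0.32 with an adjusted p = 0.0492, against adjusted p values up to 0.929 under the other alternatives. Camta1, annotated on the same strand over the whole of Per3, had 59 to 100 reads per library and a log2 fold change of 0.35 (adjusted p = 0.0867), and reads of these genes may not have been separated.

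Cry2, a cryptochrome that blocks CLOCK and ARNTL, showed the reverse of Per3 in its spread. It had 67.2, 52.9, 60.0 and 66.3 CPM in knockouts 1 to 4, against 56.0, 58.4, 59.7 and 57.8 CPM in controls 1 to 4. Knockouts reached both above and below the narrow range of the controls, with knockout 2 the lowest library as it was for Per2. For Cry2 the log2 fold change was 0.09 (95% interval -0.11 to 0.28, edgeR adjusted p = 0.603).

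Nr1d1 and Nr1d2 encode REV-ERB alpha and REV-ERB beta, the repressors that oppose RORA at its DNA element. Nr1d1 had 47.8, 36.9, 38.1 and 39.7 CPM in knockouts 1 to 4, against 48.0, 42.2, 35.2 and 40.6 CPM in controls 1 to 4. Library 1 was the highest in both genotypes, a number that pairs nothing. Nr1d2 had 147.5, 144.6, 148.8 and 157.6 CPM in knockouts 1 to 4, against 131.0, 159.7, 158.2 and 133.7 CPM in controls 1 to 4. Controls fell into a high and a low pair with the knockouts between them. The log2 fold changes were -0.03 for Nr1d1 (95% interval -0.26 to 0.20) and 0.04 for Nr1d2 (95% interval -0.14 to 0.22). Both intervals lie above the log2 fold change of Rora. The 3′ end of Nr1d1 overlaps that of Thra on the opposite strand over 1075 bases. Thra had 643 to 894 reads per library and a log2 fold change of 0.22 (adjusted p = 0.0580), and since the strand setting of the count is not given in the sources used here, the count of Nr1d1 is uncertain.

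Dbp encodes a PAR bZIP factor that carries the rhythm to output genes. It had 18.2, 24.1, 34.0 and 29.2 CPM in knockouts 1 to 4, against 30.4, 27.4, 58.1 and 28.2 CPM in controls 1 to 4. Control 3 stood apart from the other 3 controls, which lay inside the range of the knockouts. The log2 fold change of Dbp was -0.45 (SE 0.31, 95% interval -1.18 to 0.28, edgeR adjusted p = 0.414), and without control 3 it was -0.11. Its reads varied 19.5 times as much as counting error would give, more than those of 97.1% of tested genes. Sphk2 overlaps Dbp on the opposite strand over 737 bases and had a log2 fold change of -0.04 (adjusted p = 0.904). It had 137 to 236 reads per library, against 87 to 297 for Dbp. Since the strand setting is not given in the sources used here, the count of Dbp is uncertain too.

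**Figure D2:**
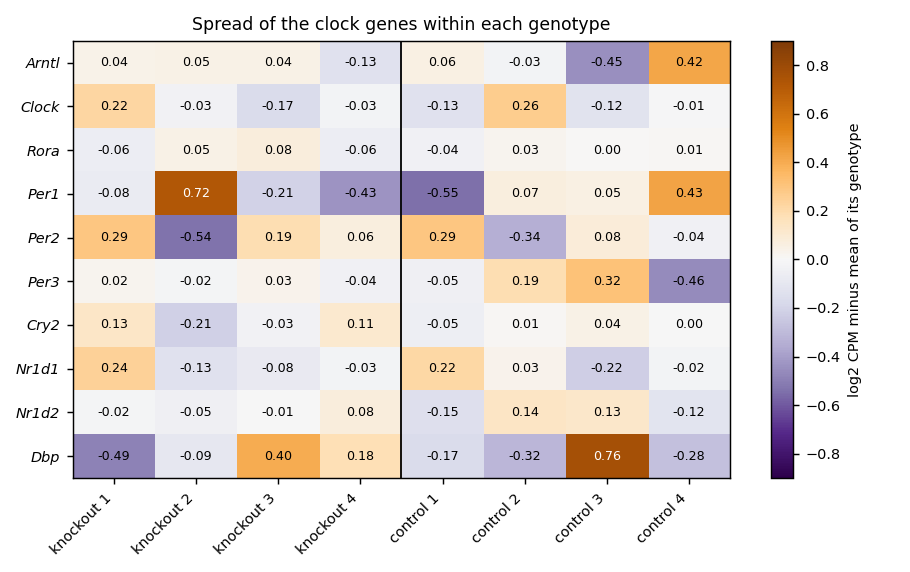
Log2 CPM of each clock gene in each library minus the mean of its genotype (orange above, purple below). Rora stays within 0.08 of its genotype mean in all 8 libraries, while Dbp reaches 0.76 in control 3 and Per1 reaches 0.72 in knockout 2.

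The members differed in how much they varied between libraries of one genotype. The SD of log2 CPM within genotypes was 0.05 for Rora, at the 0.991 percentile of tested genes, and 0.46 for Per1 and 0.45 for Dbp, at the 92.6 and 92.3 percentiles. The SD of log2 CPM also depends on read depth. Set against counting error, the variance of Rora was 1.93 times that expected, near the middle of all tested genes at the 56.5 percentile. On the same measure Per3 stood at 5.62 and Nr1d2 at 4.47, above 89.3% and 86.1% of tested genes or level with them, while Per2 stood at 1.66.

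Because the activator and repressor arms of the clock peak at opposite hours, the level of Arntl was compared over the 8 libraries with 7 genes of the repressor and output arms. None of the 7 relations passed the threshold after Benjamini-Hochberg adjustment (lowest adjusted exact permutation p = 0.312 for Pearson's r and 0.403 for Spearman's rho), and none was below 0.05 before it. Pearson's r was -0.74 for Dbp (exact permutation p = 0.0596; Spearman's rho -0.38, p = 0.360). It was -0.62 for Per3 (exact permutation p = 0.134; rho -0.45, p = 0.267) and -0.59 for Nr1d2 (exact permutation p = 0.127; rho -0.71, p = 0.0576). For the other 4 genes r lay between -0.08 (Cry2) and 0.32 (Nr1d1). Controls 3 and 4 were the 2 libraries farthest from the median of Arntl. Without them r was -0.34 for Dbp, 0.38 for Per3 and -0.27 for Nr1d2. That is closer to 0 for Dbp and Nr1d2 and of the opposite sign for Per3. Arntl in the remaining libraries spanned only 6.69 to 8.02 CPM, at 33 to 43 reads. Because the libraries left out were chosen as the extremes of Arntl, these values cannot tell whether a relation holds in the others. With each genotype centred on its own mean r was -0.69 for Dbp, -0.89 for Per3 and -0.73 for Nr1d2, with exact permutation p from 0.0868 to 0.137 and an adjusted p of 0.320 for each. Each genotype holds 4 libraries, too few for a correlation of its own.

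The contrast of these libraries can be read from some of the members directly. Control 3 had the lowest Arntl and the highest Dbp and Per3 of the 8 libraries. Control 4 had the highest Arntl and the lowest Per3. The knockouts lay between them in Arntl and in Per3. Nr1d2 was also higher in control 3 than in control 4, at 158.2 and 133.7 CPM. Other members did not share this contrast. Nr1d1 was at its lowest of all libraries in control 3, at 35.2 CPM, against 40.6 CPM in control 4. Per1 had 26.6 CPM in control 3 and 34.7 CPM in control 4, and Per2 had 6.66 and 6.10 CPM. Outside the members, Nfil3, which encodes a repressor of the genes DBP activates, did share it. Like Arntl it was lower in control 3 than in control 4, at 5.68 and 11.8 CPM. The hour of sampling was not tested, since the labels do not give it. For Rora both controls were alike at 416.2 and 418.0 CPM. Its log2 fold change was -0.71 without both of them and -0.72 with the level of Arntl as a covariate. Neither value tests a difference in hour between the genotypes. No hour is given for any library, and Arntl had only 25 to 44 reads per library.

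**Figure D3:**
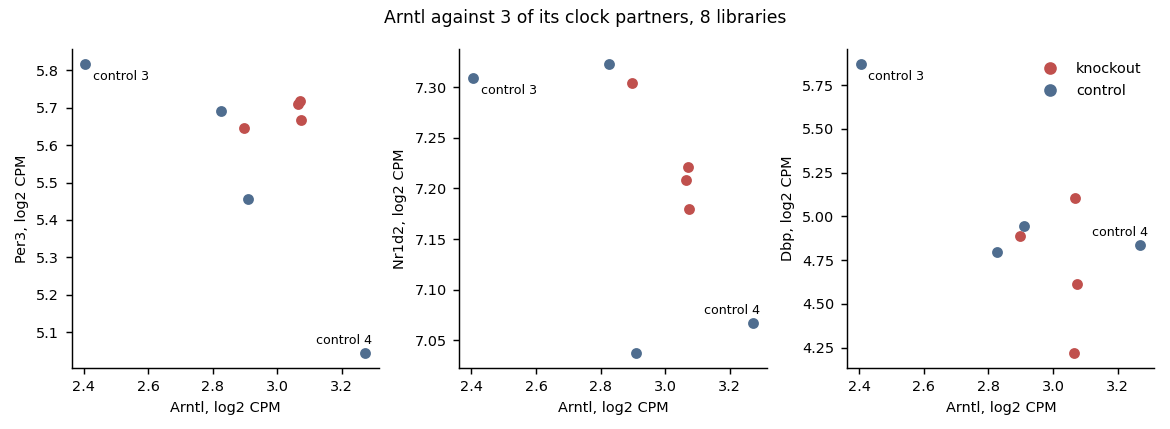
Log2 CPM of Per3, Nr1d2 and Dbp (vertical axes) against log2 CPM of Arntl (horizontal axis) in 4 knockout (red) and 4 control (blue) libraries. Pearson's r is -0.62, -0.59 and -0.74 from left to right, and controls 3 and 4 lie at the ends of the Arntl axis.

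Among other clock components, 17 genes are reported, of which 14 were tested and 3 of these fell in the knockout: Nfil3, Tef and Gsk3b. Npas2, Rorb and Fbxl21 had at most 5 reads in any library and were left out. Nfil3 and Tef act at the D-box, the element bound by DBP. Nfil3 fell, with 6.28, 4.39, 3.90 and 4.69 CPM in knockouts 1 to 4, against 11.0, 11.6, 5.68 and 11.8 CPM in controls 1 to 4. Control 3 lay among the knockouts and the other controls above them. Its log2 fold change was -1.05 (SE 0.23, edgeR adjusted p = 0.00242), at 21 to 57 reads per library. Tef, a PAR bZIP factor related to Dbp, fell too, with 531.2, 741.3, 609.6 and 711.0 CPM in knockouts 1 to 4, against 805.1, 1024, 1034 and 772.6 CPM in controls 1 to 4. Its groups did not overlap, and its log2 fold change was -0.49 (SE 0.11, edgeR adjusted p = 0.00556). Hlf, the third gene of that family, had a log2 fold change of -0.40 (adjusted p = 0.149), and without control 2 it was -0.55 with an adjusted p = 0.0347. Gsk3b, a kinase gene whose product phosphorylates clock proteins, fell by 0.39 on the log2 scale (adjusted p = 0.00878), a call that ended without controls 3 and 4 (adjusted p = 0.109).

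Cry1, the cryptochrome gene related to Cry2, had a log2 fold change of -0.10 (adjusted p = 0.782). Bhlhe40 and Bhlhe41, repressors that compete for E-boxes, had log2 fold changes of 0.19 and -0.06 (adjusted p = 0.180 and 0.813). The casein kinase genes Csnk1d and Csnk1e, whose products mark PER proteins for breakdown, stood at -0.13 and -0.19 (adjusted p = 0.573 and 0.159). The median log2 fold change of the 14 tested components was -0.11. Of them 21.4% were called, against 15.7% of all tested genes, and 6.8% of all tested genes were called lower. The shares carry no test.

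**Figure D4:**
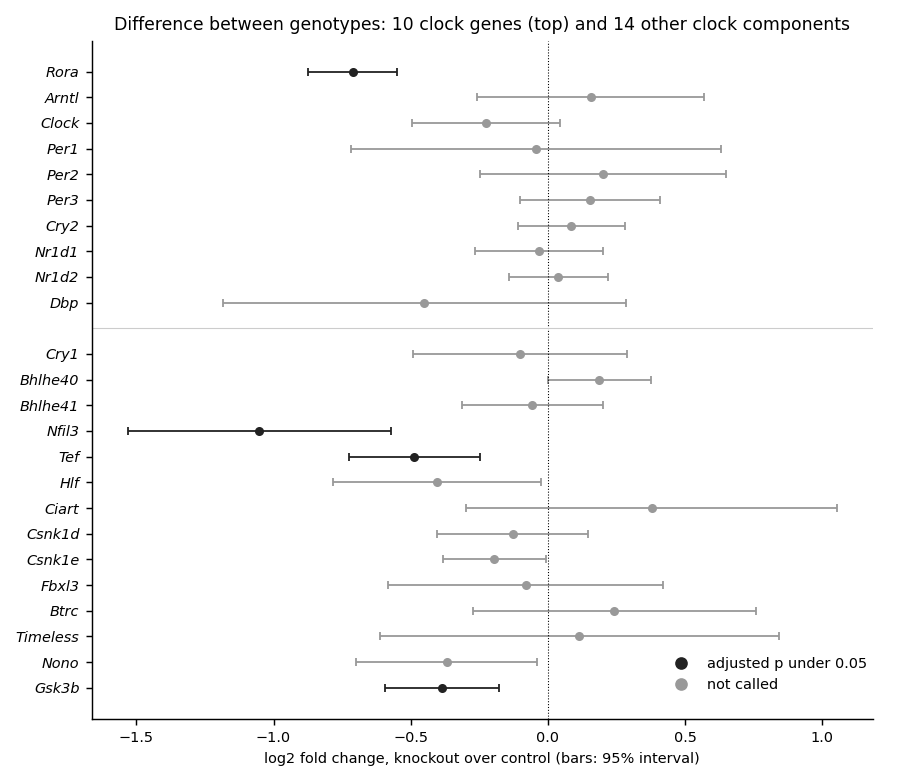
Log2 fold change, knockout over control, with its 95% interval for the 10 clock genes (top) and 14 tested other components (bottom); black points passed an adjusted p of 0.05. Rora, Nfil3, Tef and Gsk3b are black and lie below 0, while the remaining points are grey.

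The upstream sequences of these genes hold some of the elements named above. RefSeq promoter windows of GRCm38.p6 were found for 9 of the 10 members, all but Per2, with 13 start sites in all. The 250 bases before each start were searched on both strands. The motifs were the E-box CACGTG, its variant CACGTT, the D-box as TTATGTAA or TTACGTAA, and the core of the ROR and REV-ERB element as TAGGTCA or TGGGTCA. The cyclic AMP element TGACGTCA was searched too. Over all 32851 windows of this length, 6.02% held the E-box, 3.85% the variant, 0.931% a D-box and 5.38% the core. The cyclic AMP element was in 1.55% of them, and in no window of the members, Nfil3 or Tef. The stretches below show the matches in members and in Nfil3 and Tef, 5′ to 3′ on the gene's strand, with the motif in capitals. A match is a description of the letters and not a measured binding site. For Cry2 and Nr1d1, the members with the variant, the bases at the start were not found in a transcript. The place of these matches relative to a transcript start is therefore uncertain. The starts of Nfil3 and Tef were not checked in this way.
Per1, E-box, chr11:69098771-69098800, plus strand: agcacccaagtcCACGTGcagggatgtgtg
Per3, upstream D-box, chr4:151044851-151044882, minus strand: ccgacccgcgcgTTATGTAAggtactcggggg
Per3, downstream D-box, chr4:151044804-151044835, minus strand: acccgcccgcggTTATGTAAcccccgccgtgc
Cry2, E-box variant, chr2:92434218-92434247, minus strand: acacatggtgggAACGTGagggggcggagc
Nr1d1, E-box variant, chr11:98775388-98775417, minus strand: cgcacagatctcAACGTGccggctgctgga
Tef, E-box at the first start, chr15:81802534-81802563, plus strand: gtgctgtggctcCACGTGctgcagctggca
Tef, E-box at the second start, chr15:81811264-81811293, plus strand: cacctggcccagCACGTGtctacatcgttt
Nfil3, ROR and REV-ERB core, chr13:52981040-52981063, minus strand: ggcgctcggaacTGACCTActaac

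Among the genes printed, Nfil3 was the one with the ROR and REV-ERB core in its window, 12 bases before a start that was not checked. Nfil3 and Rora both fell in the knockout, and a link between them was not tested. The core was in 5.38% of all windows. Outside the members only Nfil3 and Tef are shown, genes already called lower. Per3 was the one with D-boxes, a pair of them, and it did not pass the threshold. Tef and Per1 both carried an E-box, and of these Tef fell while Per1 had a log2 fold change of -0.04 and did not pass. The windows of Rora, Arntl, Clock, Nr1d2 and Dbp held none of these letters, which says nothing of elements outside 250 bases.

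Output genes of the muscle clock were described from a list of 15, of which 14 were tested. In the knockout 1 was higher and 3 were lower, with a median log2 fold change of -0.12. The called share was 28.6%, against 15.7% of all tested genes (8.87% higher and 6.8% lower), and it carries no test. Cdkn1a, a cell cycle inhibitor gene, had 26.4, 18.9, 14.9 and 19.2 CPM in knockouts 1 to 4, against 6.46, 8.72, 8.42 and 9.25 CPM in controls 1 to 4. Every knockout was above every control, a log2 fold change of 1.26 (SE 0.18, edgeR adjusted p = 1.7e-05). Nampt, whose product makes the precursor of NAD, fell by 0.44 on the log2 scale (SE 0.09, adjusted p = 0.00139). It had 60.6 to 70.8 CPM in knockouts and 78.9 to 94.2 CPM in controls. Gdap10, annotated on the same strand inside Nampt, had 13 to 25 reads per library. Hk2, the gene of the muscle hexokinase, fell by 0.44 (SE 0.08, adjusted p = 4.8e-04), and Ucp3, a mitochondrial carrier gene, fell by 0.65 (SE 0.13, adjusted p = 0.00208). Usp2, a deubiquitinase gene of strong daily rhythm, had a log2 fold change of -0.17 (adjusted p = 0.228), and Tcap, a Z-disc gene driven by CLOCK and ARNTL, had 0.12 (adjusted p = 0.449).

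Per1 is also a glucocorticoid target, and 13 glucocorticoid and immediate early genes were listed for that reason. Of these, all tested, 0 were called by edgeR's quasi-likelihood test, against 15.7% of all 10691 tested genes. By the same test 4 had an unadjusted p under 0.05 (1 higher and 3 lower). Klf9, the last of these 4 by p, ranked 2676 of all tested genes. Fkbp5, the next of the list and above that limit, ranked 3024. The number of all tested genes under the limit thus lies between these ranks. The counts carry no test. Of the 13 genes DESeq2 called 0 and limma voom 1. Zbtb16 had a log2 fold change of -0.31 (adjusted p = 0.0636) and Tsc22d3 had -0.31 (adjusted p = 0.0687). Sgk1, a kinase gene and the higher one of the 4, had 40.6, 38.2, 34.4 and 34.1 CPM in knockouts 1 to 4, against 18.3, 21.5, 30.9 and 37.2 CPM in controls 1 to 4. Control 4 lay among the knockouts and the other controls below them. The log2 fold change of Sgk1 was 0.45 (SE 0.17, edgeR adjusted p = 0.0987). It was the gene limma voom called (adjusted p = 0.0486), and it passed under 5 of 18 alternatives, with adjusted p from 0.000374 to 0.242. The immediate early genes Egr1 and Fos were higher in controls 3 and 4 than in controls 1 and 2. Egr1 had 5.60, 7.30, 77.5 and 46.7 CPM in controls 1 to 4, with knockouts between 13.4 and 37.4 CPM. Fos had 0.431, 0.811, 11.7 and 7.99 CPM in controls 1 to 4, with knockouts between 1.28 and 11.6 CPM. Controls 1 and 2 have library numbers 9 and 10, and controls 3 and 4 have 15 and 16. The cause of this split was not tested. As log2 CPM minus the mean of the controls, the list's median was -0.09, 0.20, -0.23 and -0.36 for knockouts 1 to 4 and -0.10, -0.05, -0.14 and 0.27 for controls 1 to 4. Knockout 2 and control 4, the highest of their genotypes in this list, were also the highest in Per1. The part of these signals in Per1 was not tested.

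The genes whose pattern lay nearest to each of Rora, Arntl and Dbp were ranked by Pearson's r of log2 CPM over the 8 libraries, after each genotype was centred on its mean. Only genes with a mean of at least 10 CPM were compared, so the values are the extremes of 6133 genes (6134 for Arntl) and serve as a description. For Arntl the highest were Rlf (0.97), Triobp (0.97) and Zbtb16 (0.97), and the lowest were Clec16a (-0.98) and Hes1 (-0.97). For Dbp the highest was Cmbl (0.96) and the lowest was Rab40c (-0.96). For Rora the highest was Fbrsl1 (0.94) and the lowest were Cep57 (-0.98) and the nuclear receptor gene Nr1h3 (-0.96). Arntl and Per2, at a mean below 10 CPM, were not in the compared set, and none of the other members appeared among the 10 genes nearest or farthest for any of the 3.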

How the data were processed

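Each library has its own deposited table of unnormalized counts, whole reads per Ensembl gene identifier, per the file headers. Libraries were made with the QuantSeq 3′ FWD kit, per the labels' protocols. Tools named in the submitters' processing notes are Bowtie2 2.3.4.1 and featureCounts, with Subread 1.6.2, on GRCm38 and mm10. The sources used here do not give the annotation release, the strand setting or the handling of multiply mapped reads. Names and coordinates come from GENCODE M21, which matched 54495 of 54532 genes.

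The tests used edgeR 4.0.16 under R 4.3.3. Genes passing filterByExpr (minimum count 10, minimum total 15) were scaled by TMM and tested with the robust quasi-likelihood F test, adjusted by Benjamini-Hochberg over all 10691 tested genes at 0.05. SE is the log2 fold change over the square root of F. The 95% intervals were built from SE and so include the spread between libraries. A floor of 3 reads was 0.555 to 0.681 CPM and covers counting error only. Log2 CPM used a prior count of 2. Relations used exact permutation of libraries. Procedures were tested on simulated data. Replicates were numbered in accession order.

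Members and lists were chosen with earlier results of these data known. The text names all members; from each list up to 6 called genes of lowest p, or the 2 of lowest p where fewer than 2 were called, with some further list genes added after their values were seen; and genes of nearest pattern. Alternatives were DESeq2 1.42.0, limma voom (limma 3.58.1), other scalings, filters and covariates, and libraries left out. One listed gene is not reported here.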

Additional observations from a re-analysis of the deposited data

Results flagged for a closer look

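In each genotype, each member was checked for a library whose gap to its neighbour took up most of the range of the 4 values. Of 20 such groups 2 passed the limit, where chance gives about 1 in 20. Dbp in control 3, at 58.1 CPM, was far above the other controls, the highest of which had 30.4 CPM. Arntl in knockout 4, at 7.04 CPM, was below the other knockouts, the lowest of which had 7.96 CPM, a gap of a few reads (33 reads in knockout 4 against 38 to 43 in the others).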

How the results depend on the processing

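The fall of Rora kept its direction and its call under all 18 alternatives, with log2 fold changes from -0.75 to -0.70 and adjusted p up to 4.8e-05. Nfil3, Tef, Cdkn1a, Nampt, Hk2 and Ucp3 also kept theirs. The number of called members was 1 in each alternative except with Arntl as a covariate, where it was 2 because Per3 passed. The number of all called genes was between 1303 and 1709 with any 1 library left out and 970 with controls 3 and 4 left out together, an alternative added after the data were seen; fewer samples enter that fit. The glucocorticoid and immediate early list changed most: 4 genes were called with no low-count filter, 2 with Arntl as a covariate, 1 each by limma voom, with the library number as a covariate and without controls 3 and 4, and 0 to 3 with any 1 library left out. The cause was not tested. Among the members, Per1, Nr1d1 and Nr1d2, never called, changed sign between alternatives. Of the 7 relations of Arntl, 0 passed under any of 13 alternatives. No paired analysis was possible because the labels give no replicate numbers shared between the genotypes. Depth limits Arntl and Per2 most, at 24 to 44 reads per library.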

Other observations

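PAR bZIP activators and their repressor were set side by side after their values were seen. The summed level of Dbp, Tef and Hlf over that of Nfil3 was 88.8, 177.3, 168.5 and 160.5 in knockouts 1 to 4, and 77.4, 92.0, 196.1 and 69.5 in controls 1 to 4. Tef made up most of the sum in every library, so the ratio is close to that of Tef over Nfil3, genes that were each lower in the knockout. Knockout 1 lay among the lower controls, and control 3 was the highest library of all. Fkbp5, a gene of the glucocorticoid list, had 17.8, 33.2, 20.4 and 23.5 CPM in knockouts 1 to 4 and 31.0, 42.4, 22.5 and 35.7 CPM in controls 1 to 4, so that control 3 was again unlike the other controls and its groups overlapped.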
